A study of Caenorhabditis elegans with 12 samples.

Results

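The sperm genes described here are the rows of the count table whose *C. elegans* name begins with *msp-*, *ssp-*, *nspd-* or *spe-*. One row was taken per gene, that with the highest mean count, and a gene was kept if it reached a count of 3 in at least 1 of the 12 libraries. This gave 82 genes of the 20188 in the table: 29 *msp*, 11 *ssp*, 9 *nspd* and 33 *spe* genes. The reference holds 94 genes with such names, of which 86 were matched in the table, and 4 of these stayed under the minimum (*spe-29* with a highest count of 1, *ssp-37* with 2, and *msp-63* and *nspd-8* with 0). Just inside it were *ssp-31*, with a highest count of 3, and *spe-40*, with 4.

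The RNA came from whole larvae at the L3 stage, synchronised by bleaching and collected 31 hr after hatching, and each of the 4 strains had 3 libraries. JR667 was wild type for *lin-22* and carried *unc-119(e2498::Tc1)* III and the seam cell reporter *wIs51[SCMp::GFP + unc-119(+)]* V. The strain *lin-22(icb38)* (MBA81) also carried *wIs51*, and its *lin-22* lesion is a deletion upstream of the start codon. The paper states that this deletion also removes part of the upstream gene *vrp-1* and holds inserted sequence of *mca-3*. The strains *lin-22(ot267)* (OH4265), with a premature stop codon in *lin-22*, and *lin-22(ot269)* (OH4271), with a single-nucleotide change that is also upstream of the start codon, both carried the reporter *vtIs1* V in place of *wIs51*. The mutant strains are called *icb38*, *ot267* and *ot269* below. Each mutant is 1 strain, so that its *lin-22* allele cannot be told apart from the rest of its genome, and in *ot267* and *ot269* it cannot be told apart from *vtIs1*. *lin-22* encodes a bHLH repressor of the Hes family, studied for its part in the patterning of the epidermal seam cells. The sperm genes belong to a different tissue of the same animals.

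A *C. elegans* hermaphrodite makes sperm first, late in larval life, and then switches its germ line to oocytes. In the larval gonad germ cells commit to the sperm fate under *fog-1* and *fog-3*, pass through meiosis as spermatocytes and turn on a large set of sperm genes, many of them driven by the transcription factor SPE-44. The major sperm protein (MSP), encoded by the *msp* family, forms the filaments on which the amoeboid sperm crawls and is also the signal by which sperm trigger oocyte maturation. The *ssp* genes encode small sperm-specific proteins with an MSP domain, the *nspd* genes encode short nematode-specific peptides, and the *spe* genes are a mixed class named for spermatogenesis-defective mutants. In bulk RNA, fewer cells of a type and less RNA per cell cannot be told apart.

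Most of these genes were counted at low levels. Of the 984 values (82 genes in 12 libraries) 306 were 0, and only 12 genes had at least 10 counts in all 12 libraries, although the libraries held 56479069 to 78920246 counts. The values below are either read counts or normalised read counts, the count divided by the size factor of its library. Near-identical *msp* genes share reads and the placement of such reads is not given in the sources used here, so that a single *msp* value is uncertain and the family sum is given beside it. In the table of gene positions, 11 of the 82 genes overlap another coding gene, among them *spe-15*, *spe-5*, *spe-49*, *msp-31* and *msp-33*, and whether reads were counted by strand is not given.

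Among the libraries, *ot267* replicate 3 and JR667 replicate 3 stood apart. In *ot267* replicate 3, 1100 of the 3402 rows with a mean of 5 to 50 counts were listed at 0 (32.3%), against 93 to 416 rows in the other 11 libraries, and 45 of the 82 sperm genes were at 0 there. In the other libraries the sperm genes at 0 numbered 3 to 8 in JR667, 6 and 11 in *ot267*, 30 to 42 in *icb38* and 33 to 41 in *ot269*. JR667 replicate 3 had the highest level of the 3 JR667 libraries for 63 of the 82 sperm genes (76.8%), compared with 30.97% of the 18842 genes with a count of at least 3. Counts of 2 and 4 were more frequent in the table than counts of 1 and 3 (6238 and 4778 against 2048 and 1534 values). The labels do not say whether the replicates came from separate cultures, so p-values measure the spread between these libraries, which may be technical.

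The *msp* genes as a family were highest in JR667, intermediate in *ot267* and close to the floor in *icb38* and *ot269*. Summed over the 29 genes, the normalised read count in JR667 was 322.3 in replicate 1, 569.6 in replicate 2 and 1146.7 in replicate 3. It was 88.7, 51.2 and 56.4 in *icb38*, and 38.3, 82.0 and 64.2 in *ot269*. In *ot267* it was 309.1, 191.5 and 143.6, so that every mutant library lay below every JR667 library, but by a narrow margin for *ot267* replicate 1 against JR667 replicate 1. The means were 679.5 ± 423.0 (SD, n = 3) in JR667, 65.5 ± 20.3 in *icb38*, 214.8 ± 85.1 in *ot267* and 61.5 ± 22.0 in *ot269*. The JR667 mean was 10.4, 3.16 and 11.05 times those of *icb38*, *ot267* and *ot269*, and 6.81, 2.08 and 7.25 times without JR667 replicate 3. Without *ot267* replicate 3 the ratio for that strain was 2.715. The JR667 libraries themselves differed 3.56-fold, and no p is given for a sum over genes chosen with these results known.

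**Figure D1:**
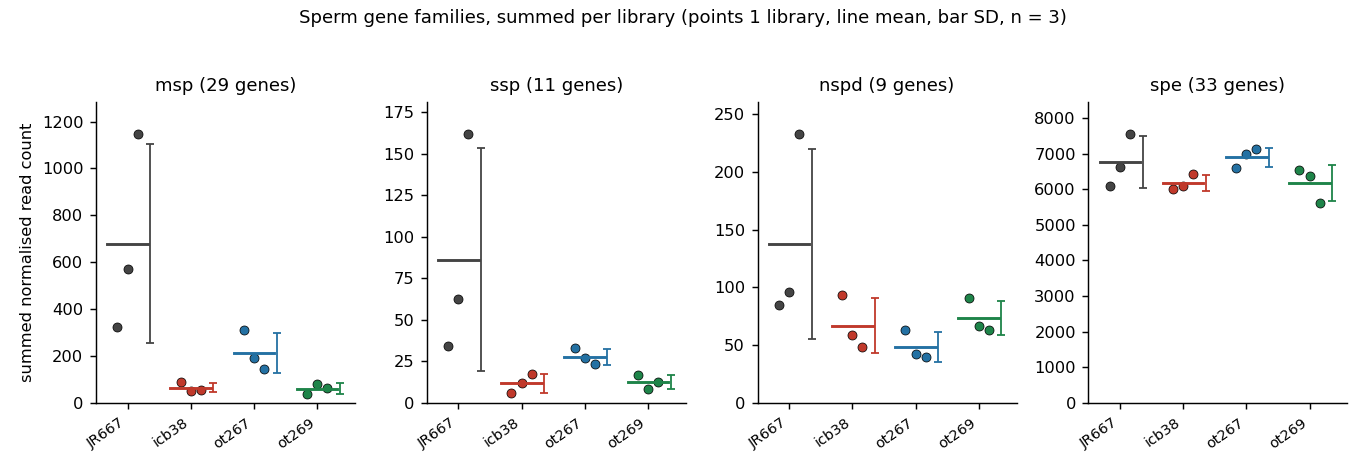
Summed normalised read count (y axis, from 0) of the *msp*, *ssp*, *nspd* and *spe* genes in each of the 12 libraries, by strain (x axis, with *lin-22* alleles named alone). Points are libraries, lines are means and bars are the SD over 3 libraries. The *msp* points of JR667 span 322.3 to 1146.7 and those of *icb38* and *ot269* 38.3 to 88.7, whereas the *spe* sums of JR667 overlap with those of each mutant.

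Most *msp* genes had few or no counts in *icb38* and *ot269*. In JR667, 27 of the 29 genes had a count in all 3 libraries. In *icb38* 10 genes had no count in any library and 19 had 3 counts or fewer in each; in *ot269* these numbers were 9 and 17, and in *ot267* 0 and 2. The genes at 0 in both *icb38* and *ot269* were *msp-10*, *msp-36*, *msp-57*, *msp-74*, *msp-77*, *msp-79* and *msp-81*. Of these *msp-81* had 16, 32 and 69 counts in JR667, 13, 2 and 0 in *ot267* and none in the 6 libraries of the other strains. Taking 3 counts per library as the floor, the JR667 mean of *msp-81* was at least 11.6-fold higher than *icb38* and at least 12.04-fold higher than *ot269*. For *msp-36*, with 10, 30 and 60 counts in JR667, the corresponding bounds were 9.895 and 10.3, and for *msp-57*, with 4, 9 and 70 counts, they were 8.145 and 8.48. The bounds without JR667 replicate 3 were 7.24 and 7.54 for *msp-81*, 6.05 and 6.30 for *msp-36* and 1.96 and 2.04 for *msp-57*. Thus JR667 replicate 3 carried most of the *msp-57* counts, while *msp-36* was well above 0 in each JR667 library.

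**Figure D2:**
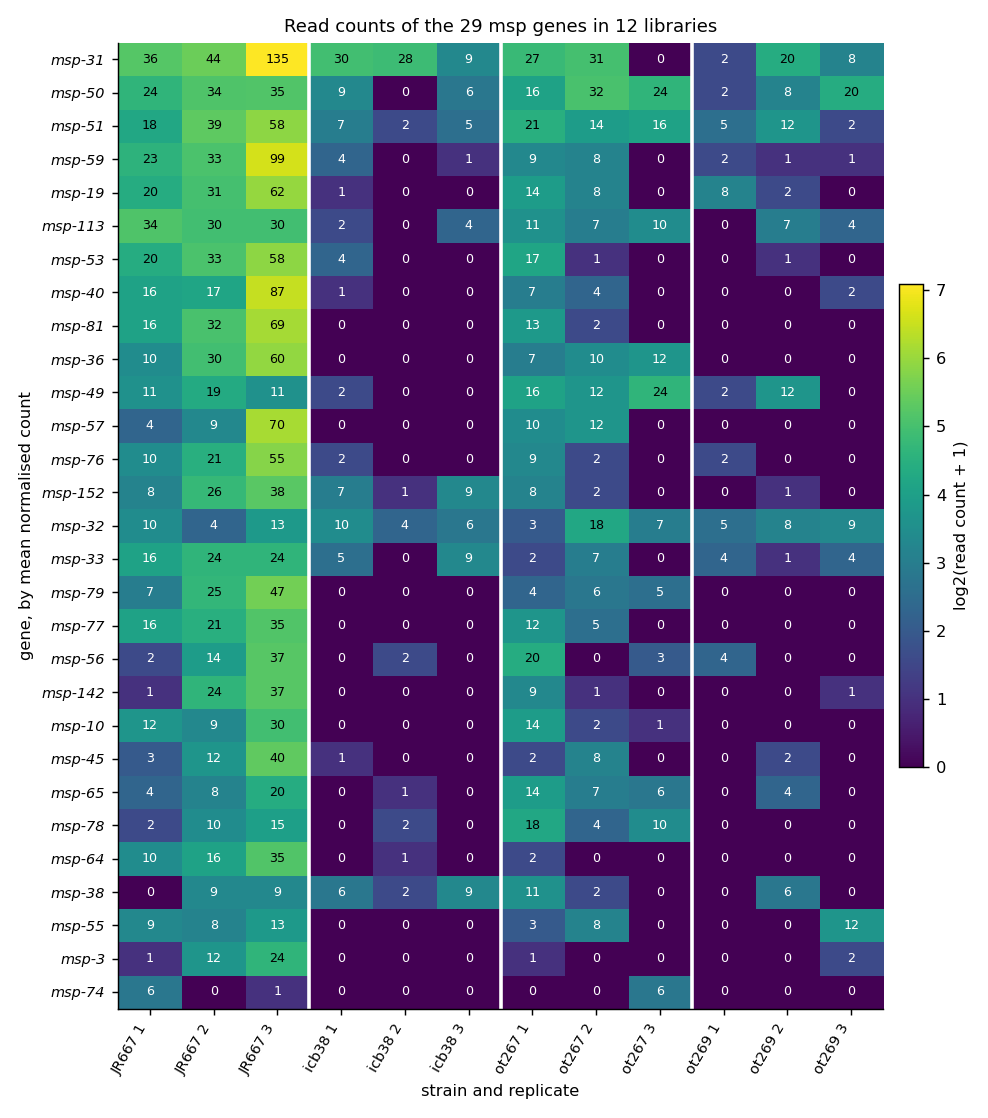
Read counts of the 29 *msp* genes (rows, ordered by mean normalised count) in the 12 libraries (columns, by strain and replicate); the number is the count and the colour its log2 after adding 1. In JR667, 27 of 29 rows have counts in all 3 libraries, while 10 rows in *icb38* and 9 in *ot269* are 0 throughout.

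The *msp* genes with the highest means were *msp-31*, *msp-50*, *msp-51*, *msp-59*, *msp-19* and *msp-113*, and they did not all behave alike. *msp-59* had 23, 33 and 99 counts in JR667 and 0 to 4 in *icb38*, 0 to 9 in *ot267* and 1 to 2 in *ot269*. Every JR667 library lay above every mutant library. *msp-59* entered the test across all rows through its JR667 libraries alone, so that it had to differ and its p-values are not given. *msp-113* had 34, 30 and 30 counts in JR667, the narrowest spread of the 6, against 2, 0 and 4 in *icb38* and 0, 7 and 4 in *ot269*. Its log2 fold changes were -3.77 (SE 0.954, edgeR adjusted p = 0.0217) and -2.97 (SE 0.886, edgeR adjusted p = 0.0306). Too few mutant libraries reached the filter on low counts for *msp-113* to enter the test without JR667, so its p-values are a description. The call in *icb38* held with each library left out, and that in *ot269* was lost only without *ot269* replicate 1 (-2.42, edgeR adjusted p = 0.108). In *ot267* its counts of 11, 7 and 10 also lay below JR667, with a log2 fold change of -1.58 that did not pass (edgeR adjusted p = 0.293).

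*msp-19* and *msp-51* were also lower in these strains. *msp-19* had 20, 31 and 62 counts in JR667, 1, 0 and 0 in *icb38* (edgeR adjusted p = 0.0147), 14, 8 and 0 in *ot267* and 8, 2 and 0 in *ot269* (log2 fold change -3.32, SE 1.10, edgeR adjusted p = 0.0486, lost without JR667 replicate 3 or *ot269* replicate 2 or 3). Like *msp-113*, *msp-19* needed its JR667 libraries to enter the test, so its p-values are a description. *msp-51* had 18, 39 and 58 counts in JR667, 7, 2 and 5 in *icb38* (-2.88, SE 0.753, edgeR adjusted p = 0.0251), 21, 14 and 16 in *ot267* and 5, 12 and 2 in *ot269* (-2.48, SE 0.729, edgeR adjusted p = 0.0285). In both *msp-51* calls the adjusted p rose above the threshold without JR667 replicate 3 (0.118 and 0.1245), and the call in *ot269* was lost without *ot269* replicate 1 or 3 as well. *msp-40* had 16, 17 and 87 counts in JR667 and 0 to 7 in the mutants, and it too entered the test through JR667 alone.

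The other *msp* genes of high mean differed less between strains or rested on single libraries. *msp-31*, which overlaps *aagr-2*, had 36, 44 and 135 counts in JR667, 30, 28 and 9 in *icb38*, 27, 31 and 0 in *ot267* and 2, 20 and 8 in *ot269*, and passed the threshold only against *ot269* (log2 fold change -2.74, SE 0.968, edgeR adjusted p = 0.0624, lost without JR667 replicate 3 at 0.255 or without *ot269* replicate 1 or 3). *msp-50* had 24, 34 and 35 counts in JR667 and 16, 32 and 24 in *ot267*, which overlap, but 9, 0 and 6 in *icb38* (log2 fold change -2.50, SE 0.871, edgeR adjusted p = 0.082, lost with any 1 of 5 of the 6 libraries left out). *msp-49* had 11, 19 and 11 counts in JR667 and 16, 12 and 24 in *ot267*, and *msp-32* had 10, 4 and 13 in JR667 and 3 to 18 in the mutant libraries. *msp-49* had 2, 0 and 0 counts in *icb38* and 2, 12 and 0 in *ot269*, whereas *msp-32* was at a like low level in every strain. In neither gene did JR667 lie above *ot267* as it did in the sum. By gene order, 11 of the 29 *msp* genes have another of the 82 genes as their next coding gene, *msp-31*, *msp-32* and *msp-33* among them. Of these *msp-33* had 16, 24 and 24 counts in JR667 and 0 to 9 in the mutants.

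The *ssp* genes were also highest in JR667, at still lower counts. Their summed normalised read count was 34.2, 62.3 and 161.8 in JR667, 5.85, 11.9 and 17.5 in *icb38*, 32.97, 26.98 and 23.2 in *ot267* and 17.01, 8.68 and 12.8 in *ot269*. All mutant libraries lay below all JR667 libraries, though *ot267* replicate 1 and JR667 replicate 1 were nearly equal. *ssp-16* had 9, 15 and 61 counts in JR667 and 0 to 10 elsewhere, *ssp-11* had 8, 11 and 23 counts in JR667 and 0 to 2 elsewhere, and *ssp-9* had 9, 24 and 21 against 0 to 7. The JR667 mean of *ssp-11* was at least 4.15-fold higher than *icb38* and at least 4.32-fold higher than *ot269*, both at 0, and that of *ssp-9* at least 5.60-fold higher than *ot269*. *ssp-35* was the exception among the 4 with the highest means, with 7, 2 and 21 counts in JR667 and 0 to 16 in the mutants. It was also the only *ssp* gene that entered the test across all rows, and it passed in none of the comparisons. *ssp-33* was counted in a single library, with 20 counts in *ot267* replicate 3, where it was the only *ssp* gene with a count. Without it the sum of that library was 0, below every other library.

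The *nspd* sums separated the strains less. They were 85.0, 95.9 and 232.6 in JR667, 93.6, 58.4 and 48.7 in *icb38*, 62.8, 42.3 and 39.4 in *ot267* and 90.4, 66.55 and 63.2 in *ot269*. JR667 overlapped with *icb38* and *ot269* but not with *ot267*, and without JR667 replicate 3 its mean was 1.35, 1.88 and 1.23 times those of the 3 mutants. All 9 genes were highest in replicate 3 among the JR667 libraries. The 2 genes with the highest means were *nspd-5* and *nspd-7*. *nspd-5* had 63, 41 and 51 counts in *ot269* against 20, 18 and 43 in JR667, a log2 fold change of 1.05 that did not pass (SE 0.753, edgeR adjusted p = 0.361). *nspd-1*, in contrast, had 5, 17 and 33 counts in JR667, 8, 1 and 0 in *ot267* and none in the other mutants, at least 5.44-fold lower in *icb38* and 5.67-fold lower in *ot269* (3.33 and 3.47 without JR667 replicate 3). *nspd-3* had 3, 16 and 28 counts in JR667 and *nspd-6* 3, 9 and 15, and in both the mutant libraries overlapped with these values.

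*nspd-7* and *spe-12* separated the strains that carry *vtIs1* from those that carry *wIs51*. *nspd-7* had 48, 34 and 69 counts in JR667 and 46, 34 and 17 in *icb38*, which overlap, but 3, 4 and 0 in *ot267* and 4, 2 and 3 in *ot269*. It was lower than JR667 in *ot267* (log2 fold change -4.26, SE 0.79, edgeR adjusted p = 0.00591) and in *ot269* (-3.90, SE 0.765, edgeR adjusted p = 0.00285), and lower in *ot269* than in *icb38* (-3.43, SE 0.764, edgeR adjusted p = 0.00896). In *icb38* it was higher than in *ot267* (3.80, SE 0.79, edgeR adjusted p = 0.005995). *spe-12*, which encodes a membrane protein of the pathway that activates hermaphrodite sperm, went the other way. It had 1, 0 and 0 counts in JR667 and 2, 4 and 2 in *icb38*, against 10, 11 and 26 in *ot267* and 15, 26 and 22 in *ot269*. In *icb38* it did not pass against JR667 (edgeR adjusted p = 0.184). It was higher than JR667 in *ot267* (edgeR adjusted p = 0.011) and *ot269* (edgeR adjusted p = 0.00253), and higher in *ot269* than in *icb38* (log2 fold change 2.84, SE 0.832, edgeR adjusted p = 0.037). In *icb38* it was lower than in *ot267* (-2.51, SE 0.837, edgeR adjusted p = 0.0656), a call lost with any 1 of 4 of the 6 libraries left out. Neither the calls against JR667 of these genes nor the *nspd-7* differences from *icb38* were lost with any 1 library left out, whereas the *spe-12* difference of *ot269* from *icb38* was lost without *icb38* replicate 1 or 3 or *ot269* replicate 2. *spe-12* entered the test across all rows through *ot267* and *ot269* libraries alone, and *nspd-7* through JR667 and *icb38* libraries alone. Both genes thus had to differ between these pairs of strains, so that their p-values are a description. *vtIs1*, strain background and *lin-22* allele cannot be told apart here.

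**Figure D3:**
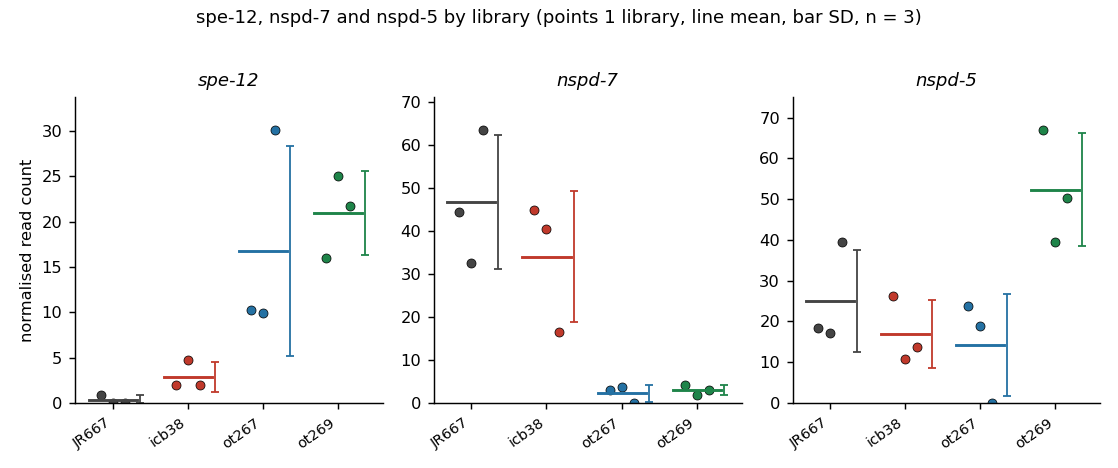
Normalised read counts (y axis, from 0) of *spe-12*, *nspd-7* and *nspd-5* in each library, by strain (x axis). Points are libraries, lines are means and bars are the SD over 3 libraries. For *spe-12* the 6 *ot267* and *ot269* libraries all sit above the other 6, and for *nspd-7* all below.

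The *spe* genes, when summed, separated none of the mutants from JR667. Their summed normalised read counts were 6098.4 to 7544.9 in JR667, 6008.5 to 6429.9 in *icb38*, 6597.1 to 7119.5 in *ot267* and 5600.7 to 6543.3 in *ot269*. The *ot267* libraries lay above those of *icb38* and *ot269*, by a narrow margin for the latter. Between 68.3% and 83.8% of each sum came from 3 genes, *spe-39*, *spe-48* and *spe-15*. By gene, 13 of the 33 had every library below every JR667 library in *icb38*, 11 in *ot269* and 5 in *ot267*. Of all genes, 14.9%, 18.6% and 11.4% did so. In the other direction, 2, 3 and 2 of all 82 sperm genes lay above JR667 in these strains. *spe-39*, which acts in vesicle trafficking and is expressed in many tissues, had means of 2216 ± 51.9 (SD, n = 3) in JR667, 2170 ± 152.1 in *icb38*, 2270.5 ± 39.5 in *ot267* and 2133 ± 167.0 in *ot269*. It thus varied little within or between strains, in contrast to the *msp* genes. *spe-48* had means of 1896 ± 119.3, 1715 ± 55.9, 1718 ± 131.1 and 1652 ± 149.6 in the same order and passed in none of the comparisons.

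*spe-15* was the 1 sperm gene called higher in all 3 mutants than in JR667. It encodes the unconventional myosin VI HUM-3, which sorts cytoplasmic components as spermatids bud off, and it overlaps *gst-25*. Its normalised read counts were 629.8, 1026 and 880.0 in JR667, 1260, 1227 and 1273 in *icb38*, 1187, 1316 and 1366 in *ot267* and 1246, 1082 and 1074 in *ot269*. All 9 mutant libraries lay above all JR667 libraries. The log2 fold changes were 0.57 (SE 0.146, edgeR adjusted p = 0.0231), 0.61 (SE 0.146, edgeR adjusted p = 0.0244) and 0.42 (SE 0.146, edgeR adjusted p = 0.0557). In *ot267* and *ot269* the call was lost in a fit of the 6 libraries compared alone. The fold change of *ot269* was 0.25 without JR667 replicate 1, the lowest library (edgeR adjusted p = 0.139), and 0.35 without *ot269* replicate 1 (edgeR adjusted p = 0.196).

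Among genes for the making of spermatocytes and their organelles, *spe-44*, *spe-4* and *spe-5* were lower in *icb38* than in JR667. *spe-44*, the SAND domain transcription factor that drives many sperm genes, had normalised read counts of 130.2, 310.7 and 513.1 in JR667, 116.0, 160.8 and 83.7 in *icb38*, 285.4, 291.3 and 298.9 in *ot267* and 211.6, 176.5 and 131.4 in *ot269*. JR667 replicate 1 thus overlapped with *icb38*. The log2 fold change of *icb38* from JR667 was -1.41 (SE 0.374, edgeR adjusted p = 0.0268), and it was -0.88 without JR667 replicate 3 (edgeR adjusted p = 0.15) and -1.21 without *icb38* replicate 3 (edgeR adjusted p = 0.11), and was also lost in a fit of the 6 libraries compared alone. Against *ot267*, whose libraries agreed closely, it was -1.29 (SE 0.374, edgeR adjusted p = 0.0371), and that call was lost without *icb38* replicate 3 (-1.08, edgeR adjusted p = 0.134). The value for *ot269* against JR667 was -0.88 (SE 0.365, edgeR adjusted p = 0.108).

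For *spe-4* and *spe-5* these differences held with each library left out. *spe-4*, a presenilin of the fibrous body-membranous organelles in which MSP is packed, had normalised read counts of 234.6, 229.2 and 293.3 in JR667, 128.6, 79.8 and 145.0 in *icb38*, 181.3, 200.5 and 364.9 in *ot267* and 228.6, 191.9 and 185.7 in *ot269*. The *icb38* libraries lay below those of every other strain, with log2 fold changes of -1.09 from JR667 (SE 0.273, edgeR adjusted p = 0.0203) and -1.07 from *ot267* (SE 0.274, edgeR adjusted p = 0.0202), and neither call was lost with any 1 library left out. *ot269* was 0.77 above *icb38* (log2 fold change, SE 0.274, edgeR adjusted p = 0.0812), a call lost without any 1 of 5 of the 6 libraries. *spe-5*, a subunit of the vacuolar proton pump that overlaps *ift-20*, had 307.5, 274.3 and 419.3 in JR667, 221.2, 152.5 and 159.6 in *icb38*, 363.7, 420.8 and 352.2 in *ot267* and 311.5, 281.6 and 296.3 in *ot269*. It too was lowest in *icb38*, by -0.91 from JR667 (SE 0.19, edgeR adjusted p = 0.00818) and -1.09 from *ot267* (SE 0.191, edgeR adjusted p = 0.00185), and *ot269* was 0.74 above it (SE 0.191, edgeR adjusted p = 0.0205). These 3 calls held with each library left out.

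Other genes of sperm formation did not all move with these. *spe-18*, needed for MSP to assemble in the fibrous bodies, had 33, 67 and 112 counts in JR667, 14, 12 and 28 in *icb38*, 17, 19 and 33 in *ot267* and 8, 8 and 1 in *ot269*. It fell most in *ot269* (log2 fold change -3.50, SE 0.718, edgeR adjusted p = 0.0038), whereas the fall in *icb38* (-1.83, SE 0.642, edgeR adjusted p = 0.0844) was lost in 5 of the 6 fits with 1 library left out. The difference of -1.67 between *ot269* and *icb38* did not pass (edgeR adjusted p = 0.154). *spe-6*, a casein kinase I of the same organelles, had means of 102.4 ± 22.5 (SD, n = 3) in JR667, 88.8 ± 27.6 in *icb38*, 119.7 ± 20.8 in *ot267* and 98.2 ± 27.1 in *ot269* and passed in none of the comparisons. *spe-26*, a kelch-like protein, had 95, 49 and 82 counts in JR667 and 46, 21 and 45 in *icb38* (log2 fold change -0.88, edgeR adjusted p = 0.179), and *spe-10*, a palmitoyltransferase, had 16, 23 and 25 counts in JR667 and 0 to 34 elsewhere. *spe-46* had 52, 34 and 75 counts in JR667 and 14, 16 and 0 in *ot269* (log2 fold change -2.29, SE 0.793, edgeR adjusted p = 0.0571), a call lost without JR667 replicate 3.

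**Figure D4:**
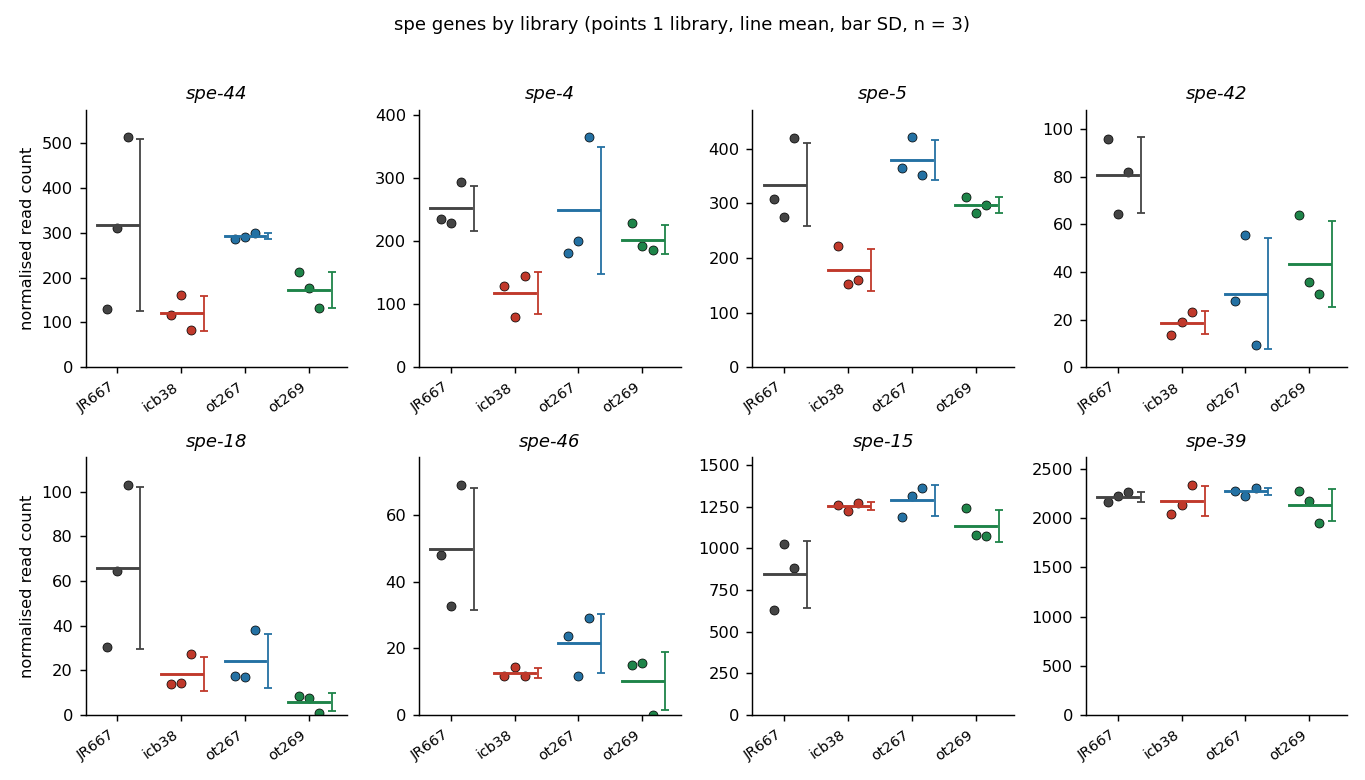
Normalised read counts (y axes, from 0) of 8 *spe* genes in each library, by strain (x axis). Points are libraries, lines are means and bars are the SD over 3 libraries. *spe-4* and *spe-5* are lowest in *icb38*, *spe-18* in *ot269*, *spe-15* is lowest in JR667 and *spe-39* lies between 1949.9 and 2336.3 in every library.

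The genes for fertilisation, whose proteins sit on the sperm surface or are secreted, were mostly too low or too variable to separate the strains. *spe-42*, a membrane protein of the DC-STAMP family, was the exception, with 104, 67 and 89 counts in JR667, 14, 16 and 24 in *icb38*, 27, 62 and 8 in *ot267* and 60, 37 and 31 in *ot269*. As normalised read counts JR667 lay above every mutant library, by 64.25 against 63.8 for the nearest, but only the difference of *icb38* passed (log2 fold change -2.10, SE 0.548, edgeR adjusted p = 0.0246), with each library left out too. Its relative *spe-49*, which overlaps *srn-1*, had 23, 46 and 94 counts in JR667 and 5, 25 and 21 in *icb38* (log2 fold change -1.47, SE 0.654, edgeR adjusted p = 0.174). *spe-9*, with EGF repeats, had 16, 16 and 35 counts in JR667 and 64, 28 and 21 in *ot269*, which overlap. *spe-41*, the TRP-3 channel, had normalised read counts of 78.5, 164.0 and 278.6 in JR667 and 212.0 to 220.3 in *icb38*, so that this strain lay inside the range of JR667. *spe-51*, with an immunoglobulin-like domain, had 36 to 50 counts in JR667, and *spe-38*, a tetraspan protein, had 0 to 8 in every library. *spe-36*, a secreted protein with an EGF-like domain, had 35, 11 and 17 counts in JR667 and 0 to 21 elsewhere. *spe-9*, *spe-36*, *spe-41*, *spe-49* and *spe-51* passed in no comparison, and *spe-38* was not tested.

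The genes for sperm activation other than *spe-12* were near the floor. *spe-8*, a tyrosine kinase, had 4, 8 and 9 counts in JR667 and 0 to 12 in the mutants, and *spe-19* had 4, 2 and 20 and 0 to 6. *spe-43* had 7, 10 and 12 counts in JR667 and 0 to 16 elsewhere, and *spe-27* had counts only in JR667 replicate 3 (6) and *ot267* replicate 1 (3). *spe-11*, a sperm-supplied factor of the embryo, had 15, 12 and 6 counts in JR667 and none in *icb38*, where its level was at least 3.28-fold lower (edgeR adjusted p = 0.0826), and this call was lost with any 1 of the 6 libraries left out.

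Across all 82 genes, the share that did not overlap between strains was set against that of all 18842 genes with a count of at least 3. In *icb38* 41 of the 82 genes (22 *msp*, 4 *ssp*, 2 *nspd* and 13 *spe*) had every library below every JR667 library, compared with 14.9% of all genes. In *ot269* there were 39 (20 *msp*, 3 *ssp*, 5 *nspd* and 11 *spe*) compared with 18.6%, and in *ot267* 20 (12 *msp*, 2 *ssp*, 1 *nspd* and 5 *spe*) compared with 11.4%. The 39 and 20 genes are 47.6% and 24.4% of the sperm genes, and in all 3 mutants the share was above that of all genes. The numbers without JR667 replicate 3 were 42, 41 and 22 in *icb38*, *ot269* and *ot267*, compared with 18.4%, 21.7% and 16.7% of all genes, since more genes separate when a strain has fewer libraries. In the other direction 2, 3 and 2 sperm genes lay above JR667 in *icb38*, *ot269* and *ot267*, where 10.9%, 17.6% and 10% of all genes did. Between mutants, 11 sperm genes (13.4%) in *ot269* and 14 (17.1%) in *icb38* lay below *ot267*, near the 13.8% and 15.8% of all genes. Without *ot267* replicate 3, the library with many rows at 0, these numbers were 25 (30.5%) and 35 (42.7%), compared with 22.4% and 22% of all genes. The count of *ot267* below JR667 was 33 (40.2%) without *ot267* replicate 1 and also 33 without JR667 replicate 1, compared with 15.8% and 17.7% of all genes.

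In the test across the 19696 rows that passed the filter on low counts, 46 of the 82 sperm genes were included (17 *msp*, 1 *ssp*, 4 *nspd* and 24 *spe*). *msp-33*, *msp-40* and *msp-59* passed the filter through JR667 libraries alone and so had to differ. *spe-12* passed through *ot267* and *ot269* libraries alone and *nspd-7* through JR667 and *icb38* libraries alone, so that they too had to differ. Of the 46, 18 reached the level of the filter in fewer than 3 mutant libraries, *msp-19*, *msp-113* and *spe-11* among them. These 18 needed JR667 to pass, so that the counts that follow are a description. The threshold was an adjusted p of 0.1. In *icb38*, 19 sperm genes were lower than in JR667 (13 *msp* and 6 *spe*), where 8.55% of all rows were lower, and 1 was higher (*spe-15*), where 7.66% were. Without JR667 replicate 3, 10 were lower, where 4.41% of all rows were, and without *icb38* replicate 3, 12 on the same rows, where 5.39% were. Without JR667 replicate 1, when 62 sperm genes passed the filter, 29 were lower, where 8.62% of all rows were. In *ot269*, 17 were lower (14 *msp*, *nspd-7*, *spe-18* and *spe-46*) and 2 higher (*spe-12* and *spe-15*), with 13.4% and 12.9% of all rows. Without JR667 replicate 3, 11 were lower, and without JR667 replicate 1, 30, where 9.99% and 12.5% of all rows were. In *ot267*, 3 were lower (*msp-40*, *msp-59* and *nspd-7*) and 2 higher (*spe-12* and *spe-15*), with 4.59% and 4.1% of all rows, so that the share of calls was close to the background of that comparison. The median log2 fold change of the 46 genes was nevertheless -0.83 there, against 0.01 for all rows. Each of the 3 lower genes had to differ, and so did *spe-12*. Without JR667 replicate 3 or without *ot267* replicate 3, 1 was lower in *ot267* (4.29% and 2.3% of all rows), and without JR667 replicate 1 or *ot267* replicate 1, 5 were (3.47% of all rows in both).

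Among the mutants, 9 sperm genes were lower in *icb38* than in *ot267* (*msp-10*, *msp-36*, *msp-49*, *msp-77*, *msp-78*, *spe-4*, *spe-5*, *spe-12* and *spe-44*), where 10.2% of all rows were, and *nspd-7* was higher, where 7.91% were. The lower genes numbered 5 without *icb38* replicate 1 or 2 and 3 without replicate 3 (8.71%, 6.47% and 7.16% of all rows), while *spe-4*, *spe-5*, *msp-36* and *nspd-7* passed with each library left out. In *ot269*, *msp-36* and *msp-78* were lower than in *ot267*, where 4.3% of all rows were. *msp-78* had 18, 4 and 10 counts in *ot267* and none in *ot269*, at least 3.73-fold lower, and *msp-36* had 7, 10 and 12 and none, at least 3.33-fold lower. Leaving out *ot269* replicate 1 or 3 ended both calls, as leaving out *ot269* replicate 2 or *ot267* replicate 1 ended that of *msp-78*. No sperm gene was higher in *ot269* than in *ot267* by edgeR's test (5.63% of all rows), with 1 at an unadjusted p under 0.05 and 1 by DESeq2. Against *icb38*, *spe-4*, *spe-5* and *spe-12* were higher in *ot269* and *nspd-7* lower, where 9.75% and 8.53% of all rows were, and only 1 sperm gene was higher without *icb38* replicate 1 or *ot269* replicate 2. The F-test over the 4 strains called 23 of the 46 sperm genes, where it called 34.9% of all rows.

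Sperm genes with other names were lower than in JR667 in *icb38* by their sum, and in both *icb38* and *ot269* by calls on single genes. Of 26 such genes listed, 19 were matched in the table outside the 82 genes. Their summed normalised read counts were 764.6, 1229.4 and 2046.0 in JR667 and 575.0 to 626.5 in *icb38*. They were 1035.6 to 1212.1 in *ot267* and 594.4 to 775.4 in *ot269*, which both overlap with JR667. *zipt-7.1* weighed heavily in these sums, with 531.9, 620.5 and 880.0 in JR667 and 423.2, 587.3 and 506.7 in *ot269*. The overlap of the *ot269* sum thus depends much on this gene. The means of *smz-2* and *snf-10* were higher in *ot269* than in JR667 (56.3 against 48.9 and 17.4 against 13.7). Of all rows, 8.55%, 13.4% and 4.59% were lower than in JR667 in *icb38*, *ot269* and *ot267*. Of the 19 genes, 13 were tested. In *icb38* 5 were lower than in JR667 (*cpb-2*, *fer-1*, *gsp-3*, *ssq-4* and *zipt-7.1*) and none higher, in *ot269* 7 were lower (these and *ssq-3* and *sss-1*) and none higher (none also at an unadjusted p under 0.05 or by DESeq2 in both strains), and in *ot267* none passed by edgeR's test (3 lower at an unadjusted p under 0.05 and 0 by DESeq2). The *gsp-3* and *ssq-4* calls in *ot269* held with each library left out, while those of *fer-1* and *zipt-7.1* held in 3 of the 6 fits and those of *cpb-2*, *ssq-3* and *sss-1* in 2. The call of *zipt-7.1* in *ot269* was also lost in 7 of 9 other alternatives, TMM among them, and that of *sss-1* by DESeq2, and in *icb38* *zipt-7.1* held in 2 of the 6 fits. Without JR667 replicate 3, 3 were lower in *icb38* and 2 in *ot269*, and without *ot269* replicate 1 or 3, 2 and 4 in that strain. *gsp-3*, a sperm protein phosphatase 1, had normalised read counts of 10.2, 47.0 and 109.4 in JR667, 1.95, 0 and 0 in *icb38*, 19.6, 20.7 and 13.9 in *ot267* and 0, 7.72 and 0 in *ot269*. *fer-1*, the ferlin of membranous organelle fusion, had 40.6, 141.9 and 303.5 in JR667 and 30.2, 38.1 and 11.7 in *icb38* (log2 fold change -2.61, SE 0.587, edgeR adjusted p = 0.0117). The fall of *fer-1* in *ot269* (-1.71, edgeR adjusted p = 0.044) was -0.88 without JR667 replicate 3 (edgeR adjusted p = 0.294) and also lost without *ot269* replicate 1 or 3. *ssq-4* had 33.2, 65.2 and 159.1 in JR667 and 3.19, 1.93 and 0 in *ot269*, which was also lower than *icb38* (-3.23, SE 0.82, edgeR adjusted p = 0.0183), and this call held with each library left out. The list of sperm and spermatocyte markers, *gsp-3*, *gsp-4*, *ssq-1*, *ssq-2*, *ssq-3*, *smz-1* and *htas-1*, which are also on the list above, summed to 67.4, 228.2 and 355.9 in JR667, 32.2 to 47.65 in *icb38*, 38.2 to 98.0 in *ot267* and 27.7 to 58.8 in *ot269*. Of its 6 tested genes 1 was lower in *icb38* (*gsp-3*), 2 in *ot269* (*gsp-3* and *ssq-3*) and none in *ot267* by edgeR's test (2 at an unadjusted p under 0.05 and 0 by DESeq2). *htas-1* had no count in *ot269*.

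Upstream of the sperm genes, the regulators of sperm fate differed between *icb38* and *ot269*. Of 16 listed regulators, 15 were tested. Of all rows, 8.55% were lower and 7.66% higher in *icb38* than in JR667, and 13.4% and 12.9% in *ot269*. Between these mutants, 9.75% of all rows were higher and 8.53% lower in *ot269*. The list was not divided into genes that promote and genes that oppose the sperm fate, so its counts and medians give no direction of fate. In *icb38* 8 were lower than in JR667 (*cpb-1*, *fbf-1*, *fbf-2*, *fem-3*, *fog-1*, *fog-2*, *fog-3* and *puf-8*) and *tra-1* was higher, with a list median of -0.69 against 0.01 for all rows. Without JR667 replicate 3, 5 were lower. In *ot269* 1 was lower (*fem-1*) and 2 higher (*elt-1* and *tra-1*), with a median of -0.09. There 5 were lower without JR667 replicate 1 and 0 without JR667 replicate 3 or *ot269* replicate 3, and in *ot267* none passed by edgeR's test or by DESeq2 (1 higher at an unadjusted p under 0.05). Tested directly, 7 of the 8 were higher in *ot269* than in *icb38*, all but *fbf-2*, and *fem-2* was lower. This count was 3 higher and none lower without *icb38* replicate 2, and 4 higher without *ot269* replicate 2. *fog-3*, a Tob family protein of the sperm fate, had normalised read counts of 890.2, 957.1 and 1249.7 in JR667, 454.2, 374.0 and 384.4 in *icb38*, 1113, 1122 and 1143 in *ot267* and 870.8, 1199 and 1030 in *ot269*. Its fall from JR667 to *icb38* was -1.35 (log2 fold change, SE 0.15, edgeR adjusted p = 0.000163), and *ot269* was 1.35 above *icb38* (SE 0.15, edgeR adjusted p = 3.27e-05). *cpb-1*, an RNA-binding protein needed for spermatogenesis, had 283.5, 688.6 and 1244 in JR667, 136.4, 92.9 and 91.5 in *icb38*, 797.5, 821.9 and 1132 in *ot267* and 493.4, 819.8 and 465.2 in *ot269*. In *ot269*, where the *msp* sum was as low as in *icb38*, the *fog-3* and *cpb-1* values overlapped with those of JR667.

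**Figure D5:**
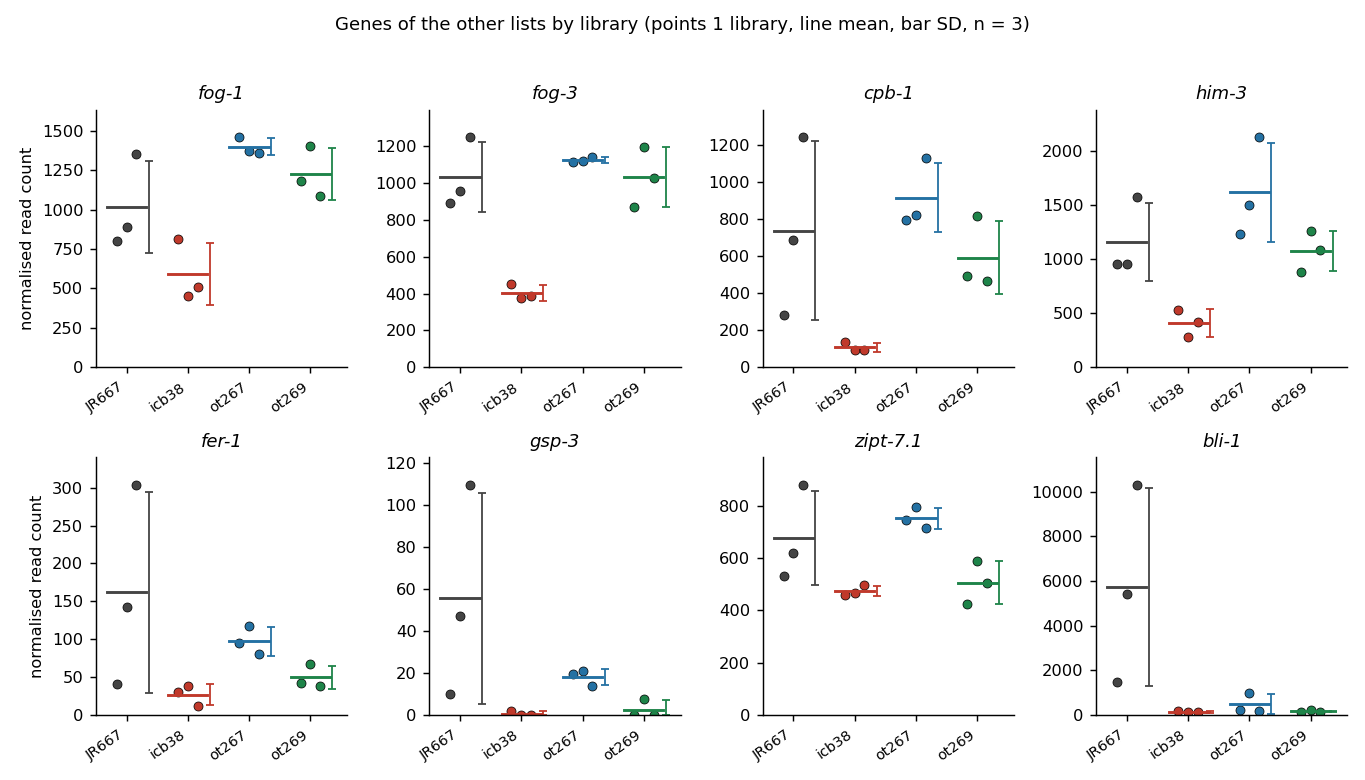
Normalised read counts (y axes, from 0) of regulators of sperm fate (*fog-1*, *fog-3*, *cpb-1*), a meiotic gene (*him-3*), other sperm genes (*fer-1*, *gsp-3*, *zipt-7.1*) and the collagen gene *bli-1* in each library, by strain (x axis). Points are libraries, lines are means and bars are the SD over 3 libraries. *fog-3*, *cpb-1* and *him-3* are lowest in *icb38* alone, whereas *bli-1* is low in all 3 mutants and highest in JR667 replicate 3, at 10298.

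Markers of the germ line also differed. Of all rows, 8.55% were lower in *icb38* than in JR667 and 9.75% higher in *ot269* than in *icb38*. Of 13 germ-line genes of either sex, 9 were lower in *icb38* than in JR667 (median -0.64 against 0.01 for all rows), among them *him-3*, *htp-1*, *syp-1* and *syp-2* of the meiotic chromosome axis and synaptonemal complex. None passed in *ot269* or *ot267* against JR667 by edgeR's test, at an unadjusted p under 0.05 or by DESeq2 (medians -0.05 and 0.21), though 1 was lower in *ot269* without JR667 replicate 1 or 2. Tested directly, 9 were higher in *ot269* than in *icb38* and 5 without *icb38* replicate 2 or *ot269* replicate 2. *him-3* had normalised read counts of 953.9, 950.4 and 1577 in JR667, 530.2, 275.2 and 413.5 in *icb38*, 1235, 1495 and 2127 in *ot267* and 882.5, 1258 and 1084 in *ot269*. Within JR667 the 13 germ-line genes summed to 40994.1 in replicate 1, 56935.9 in replicate 2 and 71182.1 in replicate 3, so replicate 3 was highest for the germ line as it was for the *msp* genes. The part of these differences in the sperm gene counts was not tested.

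Genes that mark other stages or sexes also differed. The cuticle collagen genes *bli-1*, *bli-2* and *bli-6* were lower in all 3 mutants than in JR667. *bli-1* had normalised read counts of 1486, 5407 and 10298 in JR667, 175.4, 114.4 and 111.9 in *icb38*, 242.1, 984.6 and 180.7 in *ot267* and 141.4, 200.6 and 150.1 in *ot269*. For *bli-1*, replicate 3 was the highest JR667 library and replicate 1 the lowest. The 11 moult and stage genes together did not follow this order. They summed to 120356.1 in JR667 replicate 1, 191502.0 in replicate 2 and 131211.0 in replicate 3. *bli-1*, *bli-2* and *bli-6* passed in every mutant with each library left out, with *bli-1* at log2 fold changes of -5.41, -3.60 and -5.12 in *icb38*, *ot267* and *ot269*. Of the 11 moult and stage genes, 1, 1 and 4 were higher and 4, 3 and 3 lower in *icb38*, *ot267* and *ot269*. Among all rows, 7.66%, 4.1% and 12.9% were higher and 8.55%, 4.59% and 13.4% lower in these strains, in the same order. *nhr-25* was higher in all 3, and *lin-42*, *mlt-10* and *nas-37* in *ot269*, and *nas-36* was lower in *icb38*. The *lin-42* call held in 1 of the 6 fits with a library left out and was lost by DESeq2, and that of *nas-36* held in 2. Of the oocyte, embryo and adult list, 7 of 13 tested genes were lower in *icb38* (3 without JR667 replicate 3), 3 in *ot269* (*vit-1*, *vit-2* and *vit-6*) and none in *ot267* by edgeR's test (2 lower at an unadjusted p under 0.05 and 1 by DESeq2). The yolk gene *vit-2* had normalised read counts of 37.9, 150.6 and 238.2 in JR667 and 0 to 10.7 in *icb38* and *ot269*, and the adult collagen gene *col-19* stayed at 1.95 to 30.6 in all libraries. Of 4 male genes tested none passed against JR667 by edgeR's test, with 1 higher in *icb38* and 2 lower in *ot267* at an unadjusted p under 0.05, 1 in each by DESeq2, and 0 by either in *ot269*. *pkd-2*, a neuronal gene of males, was higher in *icb38* and *ot269* than in *ot267*. All larvae carry the same stage label, and the part of these differences in the sperm gene counts was not tested.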

How the data were processed

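RNA-seq was available for 12 libraries, 3 from each of 4 strains of L3 larvae. For alignment the authors used Bowtie2, and bedtools gave the deposited read counts of 23953 entries, 182 of them not transcripts. Versions, genome build, annotation, placement of shared reads and use of strand are not given in the sources used here. The authors also deposited a normalised signal, in which counts of 0 were set to 1 and libraries divided by DESeq size factors. It was used only to check the table. Totals were 56479069 to 78920246 counts per library, with a median of 68049421.

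The 82 genes and all gene lists were chosen with earlier results of these data known. Gene names came from a table of the WBcel235 assembly. Counts were tested with edgeR 4.0.16 in R 4.3.3 (quasi-likelihood test, RLE size factors, all 12 libraries in 1 fit, filterByExpr with a count minimum of 10) and p-values were adjusted by Benjamini-Hochberg over 19696 rows, with a threshold of 0.1. Each SE is approximate, being the size of the fold change over the root of its F value. A floor of 3 counts per library bounds folds against strains at 0. Sums were not tested. The fits were also run on simulated counts, with changes placed only in rows of a higher mean level than the *msp* genes. That check does not cover genes near the floor. Genes were named if they had a high mean (6 *msp*, 4 *ssp*, 4 *nspd* and 8 *spe*), were among the 3 largest rises or falls of a comparison, belonged to a list of *spe* genes by role, passed the threshold in another list, or went against their family. *msp-32*, *msp-33*, *msp-49*, *msp-74*, *msp-79*, *nspd-1*, *spe-18*, *spe-36*, *spe-40*, *spe-46*, *ssp-31* and *ssp-33* were named after their values were seen. Alternatives were TMM or library totals, other filters, an adjusted p of 0.05, DESeq2 1.42.0, a replicate block, 1 row per gene, only the 6 libraries compared, and each library left out. *mfp-1*, *mfp-2*, *mfp-3*, *mpop-1*, *peel-1*, *gska-3* and *plg-1* were listed but not analysed here, and *trp-3* is *spe-41*. Results for some of the 82 genes are not reported here.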

Additional observations from a re-analysis of the deposited data

How the results depend on the processing

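Of 4089 alternative values of the 199 calls on named genes, 3437 had the same direction and passed, 652 had the same direction and did not pass, and 0 turned direction. The count of sperm genes called moved by over 1.5 times in these settings, where the number of genes tested differs by construction with the filter. In *icb38* against JR667 (20 called) it was 31 with no filter, 4 with at least 10 counts in every library (12 sperm genes tested), 33 by DESeq2 and 11 to 30 with a library left out. In *ot267* against JR667 (5) it was 3 at an adjusted p of 0.05, 1 with at least 10 counts in every library, 2 with the 6 libraries compared alone and 3 to 7 with a library left out. In *ot269* against JR667 (19) it was 31 with no filter, 1 with at least 10 counts, 33 by DESeq2 and 13 to 31 with a library left out. In *ot269* against *ot267* (2) it was 4 with no filter, 0 with at least 10 counts, 1 with the 6 libraries alone, 11 by DESeq2 and 0 to 3 with a library left out. In *icb38* against *ot267* (10) it was 6 at 0.05, 3 with at least 10 counts, 5 with the 6 libraries alone, 17 by DESeq2 and 4 to 11 with a library left out. In *ot269* against *icb38* (4) it was 2 with at least 10 counts, 7 by DESeq2 and 2 to 3 with a library left out. For the F-test (23) it was 35, 4, 41 and 20 to 38 under no filter, at least 10 counts, DESeq2 and a library left out. The cause of the difference between edgeR and DESeq2 was not tested. With the rows of the full fit and a library left out, chosen after seeing the data, the counts were 11 to 21, 3 to 5, 13 to 19, 0 to 3, 4 to 10, 2 to 3 and 21 to 25 in the same order. The number of genes that did not overlap, also recomputed after seeing the data, was 42 to 52 (*icb38* below JR667), 22 to 33 (*ot267* below JR667), 40 to 51 (*ot269* below JR667), 12 to 25 (*ot269* below *ot267*) and 14 to 35 (*icb38* below *ot267*) with a library left out. Replicate numbers did not pair the libraries (r of same-numbered deviations -0.138 to 0.0593), and with the replicate block 15, 3, 17, 1, 6, 4 and 21 sperm genes were called in the same order as above. Library totals alone moved the median of all rows to 0.14 in *ot269* against JR667 and to 0.11 against *icb38*. Of the *msp* genes, 23 were under 10 counts in each of the 6 *icb38* and *ot269* libraries, where these depths allow no finer comparison.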
